A study of Mus musculus with 18 samples.

Results

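The step from 16 to 24 h post injury (HPI) was examined in axotomised sensory neurons, by comparing the gene counts of 3 cultures collected at 24 HPI with those of 3 cultures collected at 16 HPI, with the replicate number as the batch. These are 6 of the 18 libraries of the series, and the comparison covers the 13771 of 47643 genes that exceeded 1 CPM (counts scaled to the library's total, per 1000000 counts) in at least 3 of the 18 libraries. All cultures were dorsal root ganglion (DRG) spot cultures (eDRG spot) from CD-1 mouse embryos at e13.5, with no engineered allele named in the labels, kept in 5-fluorodeoxyuridine (FDU), a mitotic inhibitor that removes dividing cells, to day 7 in vitro. The axons of the injured groups were cut with a blade, and those of the 3 control cultures were not. Per the labels the controls were taken at day 7 in vitro, and the samples include no uninjured culture labelled as kept for a further 16 or 24 h, so time in culture and time since the cut cannot be told apart. The sources used here do not say whether same-numbered cultures came from the same litter.

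A sensory neuron whose axon is cut activates a transcriptional program of its own, in which stress kinases induce factors such as Atf3, Jun and Sox11 while channel and neurotransmission genes decline. Much of such a program is held in check by feedback, since kinase activity also induces the phosphatases and repressors that end it. The 24 against 16 HPI comparison asks which parts of the injury response were receding, and which were still building by 24 h after the cut.

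The 16 HPI libraries held 15400680, 16995702 and 17071531 counts on genes and the 24 HPI libraries 17328823, 20652279 and 21259468, within the 9478891 to 23082327 of the whole series. Sensory neuron markers were abundant, and the summed level of 8 of them was 7969 to 9212 CPM at 16 HPI and 8282 to 8859 CPM at 24 HPI. The summed level of 12 glial markers was 242 to 296 CPM at 16 HPI and 244 to 294 CPM at 24 HPI, nearly all of it from S100b, Pmp22 and Mbp, while Fabp7 reached at most 1.32 CPM in these 6 libraries. The sums at 16 and 24 HPI were up to 27.9 and 36.1 CPM for 9 fibroblast markers, 7.83 and 9.20 CPM for 9 myeloid markers, and 1.82 and 2.35 CPM for 7 endothelial markers, and those of 7 globins ranged over both groups from 1.36 to 19.0 CPM. Of the 19 members of these glial, fibroblast, myeloid and globin lists that passed the filter, 0 were called at any fold between 16 and 24 HPI (edgeR's quasi-likelihood test). Of all tested genes, 6.22% were called lower and 3.59% higher. The median log2 change of the 7 tested glial markers was -0.64, 0.30 and 0.55 in replicates 1, 2 and 3, so a constant glial content is not shown. The data are bulk counts, in which fewer cells of a type and less RNA per cell cannot be told apart.

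Past 2-fold, the step was mostly a decline. At an adjusted p under 0.05 and a change of over 2-fold, 57 genes were lower at 24 HPI than at 16 HPI and 13 were higher, which is 0.414% and 0.0944% of the tested genes (edgeR's quasi-likelihood test, two-sided, Benjamini-Hochberg adjustment). At any fold, 857 genes fell (6.22%) and 495 rose (3.59%). With GC content and gene length corrected for and the replicate block kept, the second split moved to 819 lower and 715 higher, and past 2-fold 55 were lower and 14 higher. Without the replicate number as a term, edgeR called 18 lower and 0 higher past 2-fold and 95 lower and 16 higher at any fold, with 1399 genes at an unadjusted p under 0.05. Most calls at any fold described here therefore rest on that term. Most changes at any fold were small, since 569 of the 857 lower and 397 of the 495 higher genes differed by less than 0.5 on the log2 scale. The median log2 fold change over all tested genes was 0.005.

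The genes past 2-fold were mostly at low levels. Over the 18 libraries, 37 of the 57 lower genes and 11 of the 13 higher genes averaged under 2 CPM, against 2012 of all 13771. Under 1 CPM were 14, 6 and 747 of them, in that order. The filter asks for over 1 CPM in 3 libraries, the size of 1 group. Such genes can therefore have passed it through the group where they were high, and their calls are then not independent of the filter. The 57 lower genes comprised 50 protein-coding genes, and the 13 higher genes 8. The values of the 3 libraries at 24 HPI were all below those at 16 HPI for 51 of the 57 lower genes, and all above them for the 13 higher genes. Over all tested genes, in either direction, 14.8% had no overlap between the groups. With same-numbered cultures set against each other, 56 of the 57 fell in all 3 replicate numbers, Gm24270 being the exception. The 13 higher genes rose in all 3, where 44.3% of all tested genes moved 1 way. The calls were made on these same libraries with the replicate number as a term. Agreement of the replicates and lack of overlap therefore follow in part from the selection and are no separate evidence.

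**Figure D1:**
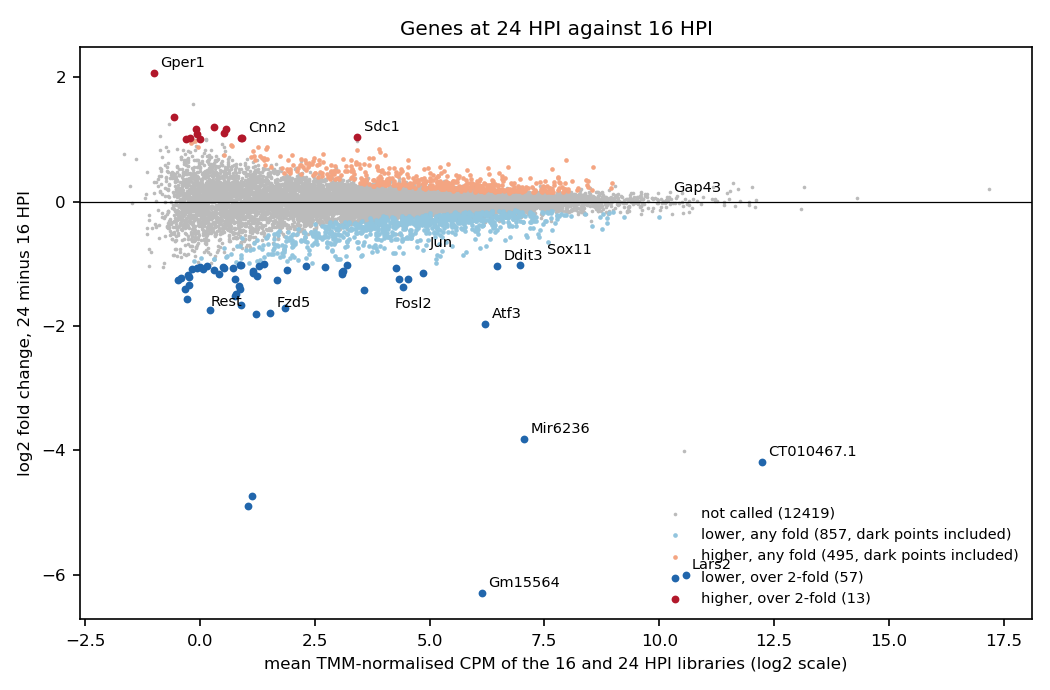
Each point is 1 of the 13771 tested genes, placed by its mean level over the 6 libraries at 16 and 24 HPI (x, TMM-normalised CPM, log2 scale) and its log2 fold change from 16 to 24 HPI (y). The 57 genes lower by over 2-fold include Atf3 at -1.97 among well-measured genes and 6 entries below -3, Lars2 and CT010467.1 among them, whereas the 13 higher genes lie between 1.00 and 2.07.

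Among these 6 libraries, the entries that fell furthest stood out in a pair at 16 HPI. Lars2, which encodes the mitochondrial leucyl-tRNA synthetase, was measured at 4481, 4514 and 54.3 CPM at 16 HPI and 50.5, 44.1 and 36.3 CPM at 24 HPI. Gm15564, an antisense entry, followed the same libraries at 102, 313 and 1.40 CPM and then 1.47, 1.64 and 1.01 CPM. CT010467.1, annotated as rRNA, lay at 26821, 1027 and 332 CPM at 16 HPI and 393, 248.6 and 273 CPM at 24 HPI. In all 3 entries replicates 1 and 2 at 16 HPI were high, and replicate 3 at 16 HPI was close to the 24 HPI libraries. A set of 7 entries, made up of Lars2, Gm23935, Mir6236 and CT010467.1 from the rRNA list and Gm24270, Gm15564 and ENSMUSG00000089855.1 added for their values in these libraries, took 3.69%, 0.66% and 0.048% of the counts at 16 HPI and 0.037% to 0.050% at 24 HPI. Elsewhere in the series, the same 7 entries took 1.16% of the counts in replicate 3 at 3 HPI, so a high share was not particular to 16 HPI. With that rRNA list and the mitochondrially encoded genes left out of the counts, 55 genes were lower and 13 higher, and with the 3 added entries left out as well, 52 and 13. Without 16 HPI replicate 1, 33 were lower and 8 higher, and without 24 HPI replicate 3, 36 and 10.

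**Figure D2:**
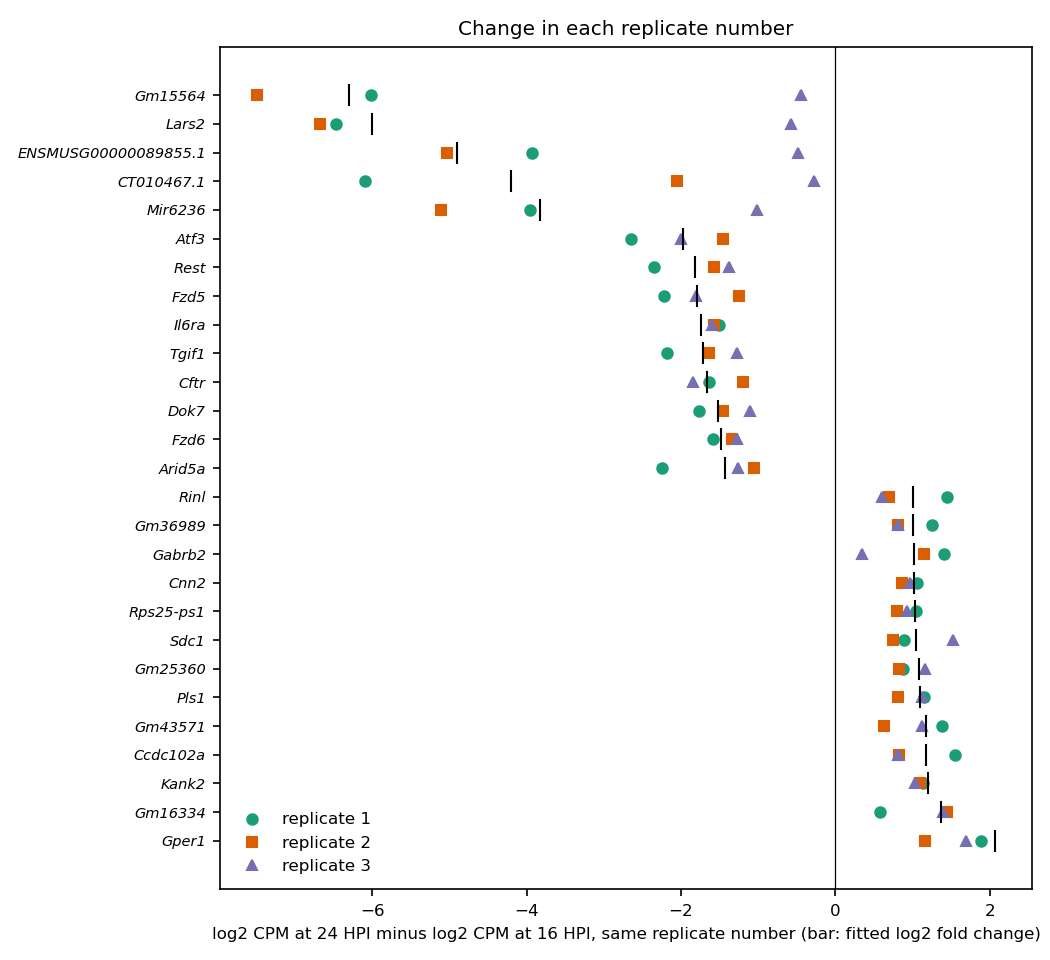
For 14 of the 15 called genes furthest lower and the 13 called genes higher, all moving 1 way in the 3 replicate numbers, points give the log2 CPM at 24 HPI minus that at 16 HPI of the same replicate number (x), and the bar gives the fitted log2 fold change. Replicate 3 of the 5 entries furthest lower lies between -1.02 and -0.28, unlike their replicates 1 and 2, while the 3 replicates of Il6ra and Fzd6 nearly coincide.

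Among regulatory genes, the injury-induced transcription factors fell furthest. Atf3 (ENSMUSG00000026628.13, chromosome 1 of GRCm38 from 191170296 to 191218039, minus strand), a stress-induced bZIP factor and a standard marker of injured sensory neurons, was measured at 119, 121 and 114 CPM at 16 HPI and 18.9, 44.3 and 28.7 CPM at 24 HPI. The 3 values at 16 HPI were close together, the 24 HPI values were all lower and more spread, and the log2 fold change was -1.97 (SE 0.19, adjusted p = 2.0e-06). Rest (ENSMUSG00000029249.15, chromosome 5 of GRCm38 from 77265491 to 77286432, plus strand), the zinc finger repressor of neuronal genes, fell from 4.19, 3.28 and 3.51 CPM to 0.735, 1.03 and 1.28 CPM. Its groups did not overlap, and its log2 fold change was -1.81 (SE 0.24, adjusted p = 6.2e-05). Both kept a fall of over 2-fold in every alternative in which they were tested, with Atf3 between -2.35 and -1.69 and Rest between -2.04 and -1.55.

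The AP-1 family, dimers of Fos, Jun and related bZIP proteins that relay kinase signals to promoters, fell in part. Of 12 tested members and partners, 7 were lower (58.3%) and 0 higher, against 6.22% and 3.59% of all tested genes. The median log2 fold change was -0.50. Fosl2 (ENSMUSG00000029135.10, chromosome 5 of GRCm38 from 32135801 to 32157842, plus strand) was at 30.4, 29.0 and 33.1 CPM at 16 HPI and 8.63, 13.7 and 13.3 CPM at 24 HPI, and its log2 fold change was -1.37 (SE 0.11, adjusted p = 3.0e-07). Jun fell less, from 82.9, 60.9 and 61.1 CPM to 44.8, 33.0 and 34.9 CPM, with a log2 fold change of -0.86 (SE 0.092, adjusted p = 5.6e-06). The small Maf proteins, which lack an activation domain and pair with other bZIP factors, were represented by Mafk at -0.87, Maff at -0.52 and Mafg at -0.28. Fos itself had 4.19, 3.11 and 3.46 CPM at 16 HPI and 2.45, 2.57 and 3.02 CPM at 24 HPI. Its groups did not overlap, but its log2 fold change of -0.40 (SE 0.27, adjusted p = 0.4) did not pass the test. Without the replicate block, Jun was not called (adjusted p = 0.17) and Fosl2 was (adjusted p = 0.002).

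The transcription factors that the study lists as raised after injury were mostly lower. Of 26 tested, 18 (69.2%) were lower at 24 HPI and 0 higher, beside 6.22% and 3.59% of all tested genes. Of the 18, 11 were lower by over 2-fold, and the median log2 fold change of the 26 was -0.88. This list was drawn from these same libraries, so it is not independent evidence of the direction. At 16 HPI, 25 of the 26 were higher than control at any fold, against 1477 of all 13771 tested genes. That count follows in large part from how the list was drawn and is no separate result. Tgif1, a homeodomain co-repressor of SMAD-dependent transcription, went from 5.40, 5.32 and 5.89 CPM to 1.10, 1.64 and 2.38 CPM, a log2 fold change of -1.72 (SE 0.27, adjusted p = 3.5e-04). Its 16 HPI values were nearly equal, and those at 24 HPI were lower in every replicate. Arid5a, an RNA-binding protein known to stabilise Il6 mRNA, went from 15.6, 17.8 and 18.5 CPM to 3.18, 8.50 and 7.68 CPM, with a log2 fold change of -1.43 (SE 0.22, adjusted p = 2.3e-04). The bZIP gene Cebpa had a log2 fold change of -1.41 and the forkhead gene Foxp2 one of -1.40, both at levels of at most 2.66 ± 0.952 CPM (SD, n = 3) at 16 HPI. Cebpa lost its call in 7 of 20 alternatives and Foxp2 in 4 of 21. Tgif1 and Arid5a lost theirs in 1 alternative each, edgeR without the replicate block (adjusted p = 0.21 and 0.15). L3mbtl3, a chromatin reader of methylated lysine, went from 13.7, 10.9 and 10.8 CPM to 6.0001, 4.86 and 4.94 CPM, and its log2 fold change was -1.16 (SE 0.11, adjusted p = 1.7e-06).

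Sox11 and a few other regeneration-associated genes fell. Sox11 (ENSMUSG00000063632.6, chromosome 12 of GRCm38 from 27334264 to 27342574, minus strand), a SoxC factor of immature and injured neurons, was at 210.4, 187 and 199 CPM at 16 HPI and 122.8, 135 and 143 CPM at 24 HPI, without overlap, and had a log2 fold change of -0.58 (SE 0.073, adjusted p = 3.5e-05). Over the 32 tested regeneration-associated genes, 6 fell (18.8%, where 6.22% of all tested genes did) and 1 rose, with a median of -0.05. The 6 were Atf3, Rest, Jun, Gadd45a at -0.85, Sox11 and Flrt3 at -0.46, and the 1 that rose was Hspb1, a small heat shock protein, at 0.51. Hspb1 lost its call in 12 of 21 alternatives, the DESeq2 Wald test included (adjusted p = 0.13), and 1 of 32 (3.12%) is close to the 3.59% of all tested genes that rose. Gap43, the growth cone protein, was among the abundant genes of the list and had values of 1163, 1214 and 1026 CPM at 16 HPI and 1241, 1147 and 1131 CPM at 24 HPI. The groups overlapped, and its log2 fold change was 0.05 (SE 0.057, adjusted p = 0.67). The neuropeptide gene Gal was under 1 CPM in all 6 libraries, with a log2 fold change of 0.22 (adjusted p = 0.77). Sprr1a, a gene induced by nerve injury in adult DRG, was not tested, with at most 2 counts in any library.

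**Figure D3:**
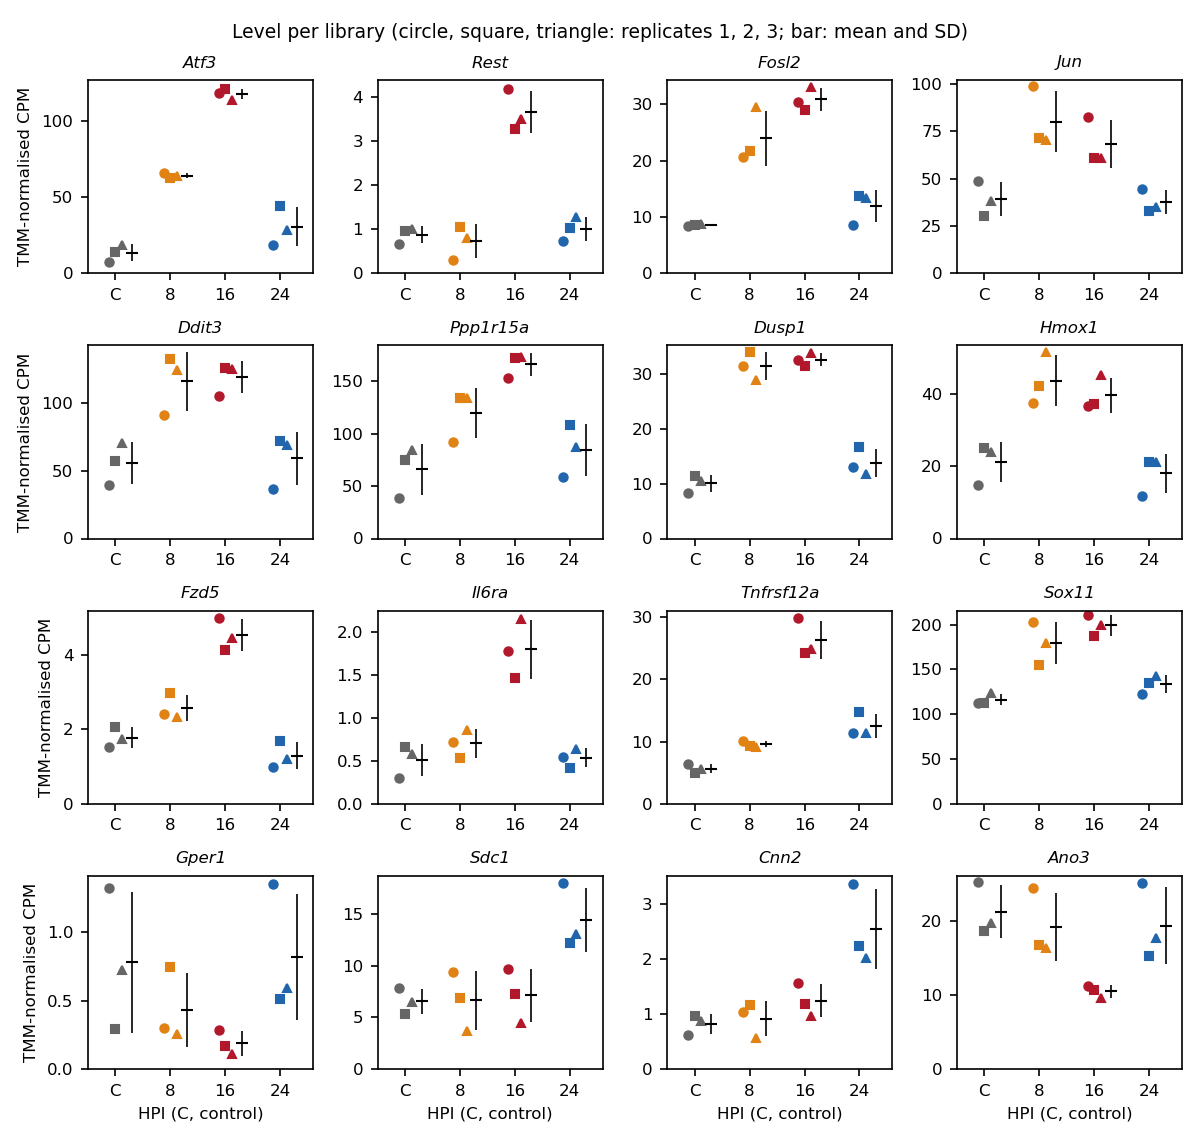
Each panel gives the TMM-normalised CPM (y, from 0) of 1 gene in the control, 8, 16 and 24 HPI cultures (x), with a symbol for each replicate number and the mean and SD (n = 3) beside them. Atf3, Rest and Tnfrsf12a were highest at 16 HPI, Dusp1 and Ddit3 had overlapping values at 8 and 16 HPI, and Sdc1 and Cnn2 had their highest mean at 24 HPI.

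Genes of the integrated stress response, in which phosphorylation of eIF2-alpha slows translation while Atf4 induces amino acid and repair genes, fell in part. Of 32 tested, 15 (46.9%) were lower and 0 higher at any fold, where 6.22% and 3.59% of all tested genes were. Of the 15, 2 were lower by over 2-fold, and the median log2 fold change of the 32 was -0.19. Ddit3 (ENSMUSG00000025408.15, chromosome 10 of GRCm38 from 127290774 to 127296288, plus strand), which encodes the bZIP factor CHOP, was at 105, 126 and 125 CPM at 16 HPI and 36.8, 71.8 and 68.7 CPM at 24 HPI. Ppp1r15a, the phosphatase subunit GADD34 that reverses eIF2-alpha phosphorylation, went from 153, 172 and 173 CPM to 58.7, 108 and 87.4 CPM. Neither gene overlapped between the groups, and the log2 fold changes were -1.04 (SE 0.11, adjusted p = 5.6e-06) and -1.01 (SE 0.12, adjusted p = 1.7e-05). Atf4 itself fell less, from 402, 415 and 452 CPM to 282, 354 and 334 CPM, a log2 fold change of -0.39 (SE 0.057, adjusted p = 1.5e-04). The amino acid sensor Sesn2 was at -0.71, the secreted Stc2 at -0.75, the pseudokinase Trib3 at -0.50 and the glutathione-degrading Chac1 at -0.38. Ddit3 and Ppp1r15a were under 2-fold without 16 HPI replicate 1, at -0.91 and -0.81, and without 24 HPI replicate 1, at -0.92 and -0.98. Without the replicate block they had adjusted p = 0.12 and 0.20 and were not called.

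Related stress lists fell in smaller part. Of 19 tested endoplasmic reticulum chaperone and unfolded protein response genes, 5 were lower (26.3%) and 0 higher. Of all tested genes, 6.22% were lower and 3.59% higher. Among the 5, the chaperone gene Hspa5 went from 513, 502 and 472 CPM to 339, 402 and 353 CPM, a log2 fold change of -0.45 (SE 0.057, adjusted p = 3.5e-05). The co-chaperone gene Dnajb9 had a log2 fold change of -0.69 and the transcription factor gene Xbp1 one of -0.27. Hsp90b1 and Sel1l, also lower, lost their calls in 13 and 11 of 22 alternatives. Of 20 Nrf2 antioxidant genes, 5 were lower (25.0%) and 0 higher. The haem oxygenase gene Hmox1 was at 36.5, 37.1 and 45.3 CPM at 16 HPI and 11.8, 21.2 and 21.1 CPM at 24 HPI, a log2 fold change of -1.15 (SE 0.11, adjusted p = 1.5e-06), whereas the other 4 were between -0.33 and -0.22. Of 20 cytosolic aminoacyl-tRNA synthetases, 4 were lower, at -0.23 to -0.16, and 0 higher. Among 19 BCL2 family and caspase genes 4 were lower (21.1%), namely the pro-apoptotic Bmf (-0.84), Bcl2l11 (-0.79) and Bbc3 (-0.40) and the anti-apoptotic Bcl2 (-0.32). Bcl2 lost its call in 16 of 22 alternatives, the DESeq2 Wald test included (adjusted p = 0.16), Bbc3 and Bcl2l11 in 6 of 22 each and Bmf in 9 of 21.

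Feedback inhibitors of MAP kinase signalling, chiefly the dual-specificity phosphatases that switch off ERK, JNK and p38, were lower in 8 of 17 tested members (47.1%). None were higher, and the median was -0.23. Of all tested genes, 6.22% were lower and 3.59% higher. Dusp1 (ENSMUSG00000024190.6, chromosome 17 of GRCm38 from 26505590 to 26562128, minus strand) had 32.7, 31.5 and 33.9 CPM at 16 HPI and 13.0, 16.6 and 11.8 CPM at 24 HPI. Its values were tight in both groups and did not overlap, with a log2 fold change of -1.24 (SE 0.11, adjusted p = 6.1e-07), and it was called past 2-fold in all 22 alternatives. Dusp4, at 15.9, 10.02 and 11.5 and then 6.31, 6.82 and 5.03 CPM, and Dusp16, at 7.18, 5.89 and 6.97 and then 4.16, 2.76 and 2.92 CPM, had log2 fold changes of -1.03 and -1.04. Spry1, an inhibitor of receptor tyrosine kinase signalling, and Dusp2 were under 2 CPM and had log2 fold changes of -1.10 and -1.07. Spry1 lost its call in 9 of 21 alternatives, the DESeq2 Wald test included (adjusted p = 0.072), and Dusp2 in 9 of 20.

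Immediate early and activity genes, which neurons induce within minutes of a stimulus, were mostly lower where they were called. Of their tested members, 42.1% were lower and 10.5% higher, against 6.22% and 3.59% of all tested genes, and 16 had a value below 0. Of 19 tested, 8 fell and 2 rose, with a median of -0.35 (-0.47 without 16 HPI replicate 2 and -0.24 without 24 HPI replicate 3). Arc, a synaptic plasticity gene, was at 4.90, 4.81 and 5.40 and then 2.57, 1.82 and 3.75 CPM, a log2 fold change of -0.90 (SE 0.17, adjusted p = 0.0014). Log2 fold changes were -0.82 for Nfil3, -0.73 for Klf4 and -0.67 for Ier2, and Rgs2 and Nptx2 rose by 0.38 and 0.21. Egr1 had values of 5.47, 2.66 and 6.32 CPM at 16 HPI and 2.69, 2.43 and 5.30 CPM at 24 HPI, which overlapped, and was not called (adjusted p = 0.22).

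Receptors and their modulators formed a further group. Of 26 tested Wnt genes, 7 were lower (26.9%) and 0 higher, where 6.22% and 3.59% of all tested genes were. The median was -0.08, and 5 of the 7 were Frizzled receptors. Fzd5 (ENSMUSG00000045005.9, chromosome 1 of GRCm38 from 64730558 to 64737751, minus strand) went from 4.97, 4.13 and 4.43 CPM to 0.98, 1.68 and 1.19 CPM, a log2 fold change of -1.79 (SE 0.19, adjusted p = 5.6e-06), and Fzd6 from 2.42, 2.89 and 2.38 CPM to 0.735, 1.07 and 0.914 CPM, a log2 fold change of -1.48 (SE 0.23, adjusted p = 2.7e-04). The 24 HPI values of both were below every 16 HPI value. Fzd4, Fzd8 and Fzd3 had log2 fold changes of -0.76, -0.52 and -0.33, the ligand gene Wnt9a -1.02 and Znrf3, a ubiquitin ligase that removes Frizzled receptors, -0.68. Wnt9a lost its call in 9 of 21 alternatives. Of 22 SMAD, TGF-beta and Id genes, 7 fell (31.8%) and 2 rose (9.09%). The inhibitory Smad7 was at 4.12, 3.11 and 2.65 and then 1.90, 1.54 and 1.33 CPM (-1.04, SE 0.24), and Id4, an inhibitor of bHLH factors, rose from 62.4, 66.9 and 58.0 CPM to 94.1, 92.4 and 87.0 CPM (0.55, SE 0.078).

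Cytokine receptors were few among the calls. Il6ra, the ligand-binding subunit of the interleukin-6 receptor, fell from 1.78, 1.47 and 2.16 CPM to 0.551, 0.421 and 0.64 CPM, a log2 fold change of -1.74 (SE 0.28, adjusted p = 3.7e-04). Il6ra was over 1 CPM in each 16 HPI library and under it in each 24 HPI library, so it may have passed the filter through 16 HPI. Its signalling partner Il6st, with a mean of 509 ± 63.0 CPM (SD, n = 3) at 16 HPI, was not called, with a log2 fold change of -0.07 (adjusted p = 0.44). Over the 23 tested gp130, JAK and STAT genes, 2 fell (8.70%, near the 6.22% of all tested genes) and 0 rose. The second was Jak2 at -0.30, which lost its call in 8 of 22 alternatives. Tnfrsf12a, the TWEAK receptor Fn14, was at 29.8, 24.3 and 24.8 CPM at 16 HPI and 11.3, 14.7 and 11.3 CPM at 24 HPI, a log2 fold change of -1.07 (SE 0.11, adjusted p = 4.8e-06). Tnfrsf1b, which encodes TNF receptor 2, went from 4.19, 3.74 and 5.67 CPM to 1.41, 2.15 and 2.01 CPM (-1.27, SE 0.20). Among 59 axon guidance genes 5 fell (8.47%) and 3 rose (5.08%), close to the 6.22% and 3.59% of all tested genes. The 4 furthest lower were Sema6a (-0.87), Rgma (-0.83), Efnb2 (-0.75) and Unc5b (-0.74), while its relative Unc5c, also a netrin receptor, rose by 0.31.

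Other genes lower by over 2-fold came from unrelated families. The chloride channel gene Cftr fell from 2.91, 2.60 and 2.92 CPM to 0.857, 1.07 and 0.731 CPM (-1.66, SE 0.26), and the receptor kinase adaptor gene Dok7 from 3.20, 1.87 and 2.59 CPM to 0.857, 0.607 and 1.14 CPM (-1.52, SE 0.25). Tacr1, the substance P receptor, had values of 1.85, 2.94 and 4.37 CPM at 16 HPI and 0.857, 0.981 and 2.33 CPM at 24 HPI. The groups overlapped, but same-numbered cultures differed by -1.02, -1.48 and -0.88 on the log2 scale, and the fitted change was -1.14 (adjusted p = 6.3e-04). Of 47 histone genes 4 fell (8.51%) and 1 rose (2.13%), and of 335 zinc finger genes 26 fell (7.76%) and 3 rose (0.90%), with a median of -0.04. The shares that fell are near the 6.22% of all tested genes.

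By their control values, the genes that rose comprised some that were low at 16 HPI and some that passed the uninjured level. Gper1 (ENSMUSG00000053647.4, chromosome 5 of GRCm38 from 139423151 to 139427800, plus strand), a G protein-coupled oestrogen receptor, had 1.32, 0.295 and 0.723 CPM in control, 0.284, 0.17 and 0.108 CPM at 16 HPI and 1.35, 0.514 and 0.594 CPM at 24 HPI. Its 24 HPI values were above all 16 HPI values, and its log2 fold change from 16 to 24 HPI was 2.07 (SE 0.52, adjusted p = 0.013). It rests on few reads, 2 to 4 counts per library at 16 HPI. Gabrb2, a GABA-A receptor subunit, was at 2.19, 2.88 and 2.07 CPM in control and went from 0.924, 1.42 and 1.24 CPM to 2.63, 3.27 and 1.5995 CPM, a log2 fold change of 1.02 (SE 0.23, adjusted p = 0.0072). Sdc1 (ENSMUSG00000020592.14, chromosome 12 of GRCm38 from 8771323 to 8793715, plus strand), the heparan sulphate proteoglycan syndecan 1, was at 7.83, 5.38 and 6.46 CPM in control, 9.66, 7.25 and 4.48 CPM at 16 HPI and 18, 12.2 and 13.1 CPM at 24 HPI. Its 24 HPI values exceeded those of every control and 16 HPI library, and its log2 fold change was 1.04 (SE 0.16, adjusted p = 2.7e-04). Cnn2, an actin-binding calponin, Pls1, an actin-bundling plastin, and Kank2, an adaptor of focal adhesions, rose from 1.56, 1.19 and 0.972 CPM to 3.37, 2.24 and 2.01 CPM, from 0.853, 1.02 and 0.864 CPM to 2.02, 1.87 and 2.01 CPM and from 1.14, 0.509 and 0.594 CPM to 2.63, 1.21 and 1.33 CPM, in that order. Their log2 fold changes were 1.02, 1.10 and 1.20. Gabrb2 and Cnn2 lost their call past 2-fold in 8 of 21 alternatives each, Kank2 in 6 of 20 and Pls1 in 4 of 21.

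The remaining 7 genes higher by over 2-fold were Ccdc102a (1.17), Rinl (1.00), and the non-coding or pseudogene entries Gm16334, Gm43571, Gm25360, Rps25-ps1 and Gm36989, between 1.01 and 1.36. Rps25-ps1 can share reads with its parent gene. When 1 library, or 1 replicate number of both groups, was left out, 2 to 9 of the 13 higher genes and 28 to 50 of the 57 lower genes kept their call. Sdc1 was under 2-fold without 16 HPI replicate 3 (0.87) or 24 HPI replicate 3 (0.95), and Gper1 was not called without 16 HPI replicate 1 (adjusted p = 0.085) or 24 HPI replicate 1 (adjusted p = 0.065). In all, Sdc1 lost its call past 2-fold in 5 of 22 alternatives and Gper1 in 6 of 20. Without the replicate block, edgeR called neither (adjusted p = 0.25 for each).

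Ion channel subunits rose in 18 of 170 tested members (10.6%) and fell in 2 (1.18%), where 3.59% and 6.22% of all tested genes did. The median was 0.07, with 114 of the 170 above 0, against 7057 of all 13771 genes. Ano3, a member of the anoctamin family, was at 25.4, 18.7 and 19.7 CPM in control and went from 11.3, 10.7 and 9.61 CPM to 25.2, 15.3 and 17.7 CPM, a log2 fold change of 0.85 (SE 0.10, adjusted p = 1.6e-05). The potassium channel genes Kcnj3, Kcnv1 and Kcnd2 rose by 0.68, 0.67 and 0.63. Kcnv1, a silent subunit, was higher in replicate 1 than in the others at 16 HPI, with 36.7, 6.62 and 9.88 CPM, and rose in each, to 59.0, 9.11 and 17.2 CPM. The 2 that fell were Cacng3 (-0.73) and Clcn7 (-0.24). The chloride channel gene Cftr, which fell by over 2-fold, is not in this list and so not in these counts. Against control, 84 of the 170 were lower at 16 HPI and 61 at 24 HPI, where 11.5% and 9.03% of all tested genes were. These comparisons share the control libraries and, with the 24 against 16 HPI comparison, the injured ones.

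Neuromodulator receptors, G protein-coupled receptors for opioids, amines, purines and other ligands, rose in 11 of 45 tested members (24.4%) and fell in 4 (8.89%). Of all tested genes, 3.59% rose and 6.22% fell, so the share that fell is near that of all genes. Besides Gper1, the neuropeptide Y receptor gene Npy2r rose from 3.27, 1.75 and 0.918 CPM to 4.96, 3.27 and 2.24 CPM (0.88, SE 0.23), the serotonin receptor gene Htr1d by 0.59 and the mu opioid receptor gene Oprm1 by 0.32. Npy2r lost its call in 7 of 21 alternatives and Htr1d in 10 of 22. Tacr1, Adra2a (-0.71), Sstr2 (-0.53) and Hrh1 (-0.50) fell. The median of the 45 was 0.09.

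Transcription factors of sensory neuron identity were mostly higher where they were called. Of 25 identity factors and trophic receptors, 7 rose (28.0%) and 2 fell (8.00%), with a median of 0.09. Of all tested genes, 3.59% rose and 6.22% fell. The LIM homeodomain genes Isl2 and Isl1 rose from 29.6, 31.5 and 38.7 CPM to 42.6, 45.3 and 65.1 CPM and from 87.8, 67.7 and 61.1 CPM to 123.2, 83.9 and 71.8 CPM, with log2 fold changes of 0.61 (SE 0.12, adjusted p = 0.0019) and 0.34 (SE 0.064, adjusted p = 0.0014). The nociceptor regulator Prdm12 rose by 0.31, its relative Prdm8 by 0.51 and Pou4f1, a POU factor of all sensory neurons, by 0.22. The values of Isl1 overlapped between the groups, but same-numbered cultures differed by 0.49, 0.31 and 0.23. Runx1, a regulator of non-peptidergic nociceptors, had a log2 fold change of -0.88, and Six4 one of -0.34. The 7 genes of this list named here were not called without the replicate block (adjusted p = 0.39 to 0.75).

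Targets of p53 were called in both directions. Of 25 tested, 5 fell (20%) and 2 rose (8%), where 6.22% and 3.59% of all tested genes did. The median was 0.07, which was -0.01 without 16 HPI replicate 2 or 24 HPI replicate 1. Phlda3, a target that inhibits AKT signalling, was at 5.03, 5.82 and 7.47 CPM in control and rose from 9.45, 9.51 and 14.3 CPM to 14.3, 20 and 23.6 CPM, a log2 fold change of 0.81 (SE 0.11, adjusted p = 5.1e-05), and the cyclin gene Ccng1 rose by 0.29. Gadd45a, Bbc3, Plk3, Mdm2 and Plk2 fell, with log2 fold changes between -0.85 and -0.33. The lipid list also moved little in size. Of 32 cholesterol synthesis and uptake genes, 7 fell (21.9%) and 1 rose (3.1%). The share that rose is near the 3.59% of all tested genes, and 6.22% of those fell. Of the 32, 29 had a value below 0, with a median of -0.08. Fasn, the fatty acid synthase gene, went from 1022, 1131 and 1173 CPM to 855, 935 and 1002 CPM (-0.25, SE 0.058).

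Several families had few or no calls, where 6.22% of all tested genes were called lower and 3.59% higher. Of 50 synaptic vesicle genes, 38 tubulin and cytoskeletal genes, 81 nuclear-encoded respiratory chain genes and 13 mitochondrially encoded genes, 0 were called at any fold by edgeR. Their median log2 fold changes were 0.00, -0.00, 0.01 and 0.21. Of 81 ribosomal protein genes 1 was called, Rps29 at -0.23, and of 16 heat shock protein genes 1, Hspb1. Sensory neuropeptides and granins had 1 call in 20, Vgf at -0.25. The heat shock (6.25% higher) and neuropeptide (5% lower) shares are near those of all tested genes. Rps29 lost its call in 14 of 22 alternatives and Vgf in 11 of 22. A call that is missing in these families shows only that the test was not passed.

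**Figure D4:**
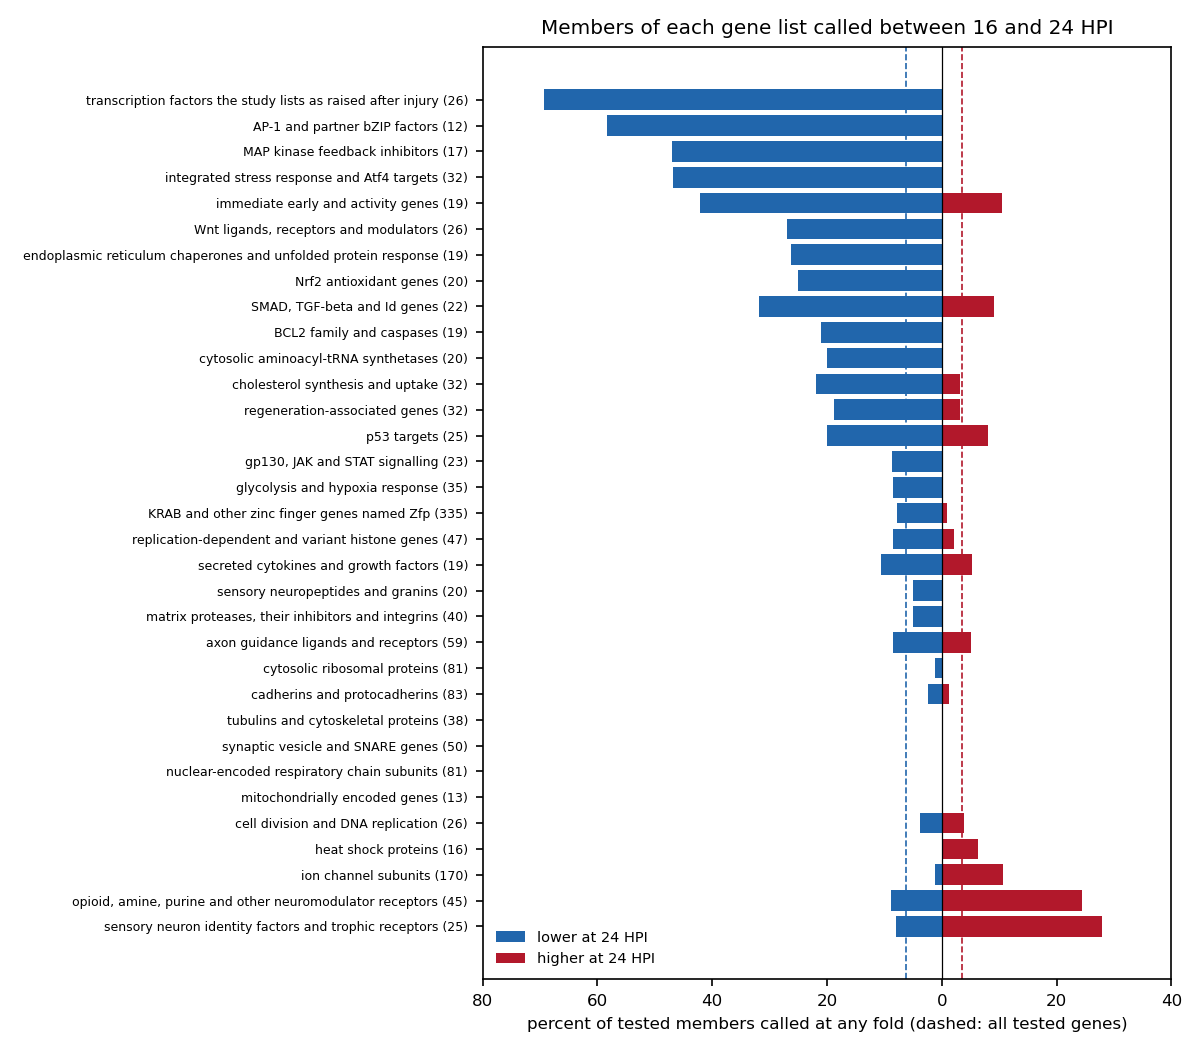
For each list with at least 10 tested members (number in brackets), bars give the percent of members called lower (left) and higher (right) at 24 HPI against 16 HPI at any fold, and the dashed lines the 6.22% and 3.59% of all tested genes. The injury transcription factors, of which 18 of 26 were lower, lead on the left, and the identity factors, of which 7 of 25 were higher, on the right.

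The uninjured level was not reached by all genes that fell. Relative to control, the median of the 57 lower genes was 1.35 at 16 HPI and 0.03 at 24 HPI on the log2 scale, and that of the 13 higher genes was -0.94 and 0.20. The control comparisons share the injured libraries with the 24 against 16 HPI comparison, so each is given by its own values. Atf3 lay 3.16 above control at 16 HPI and 1.19 at 24 HPI (adjusted p = 0.0011 at 24 HPI). Tgif1 was still at 1.50 and Tnfrsf12a at 1.14 at 24 HPI, whereas Rest was at 0.25 (adjusted p = 0.65) and Jun at -0.06 (adjusted p = 0.74). Fos, which had not passed the test of the step, was at 1.39 above control at 24 HPI (adjusted p = 0.0099). Among the genes that rose, Sdc1 was at 1.14, Cnn2 at 1.62 and Kank2 at 1.599 above control at 24 HPI, and Gper1 at 0.01. Atf3 at 24 HPI was under 2-fold above control without 24 HPI replicate 2 (0.82) or control replicate 1 (0.98), and Tgif1 lost its call there in 6 of 24 alternatives.

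**Figure D5:**
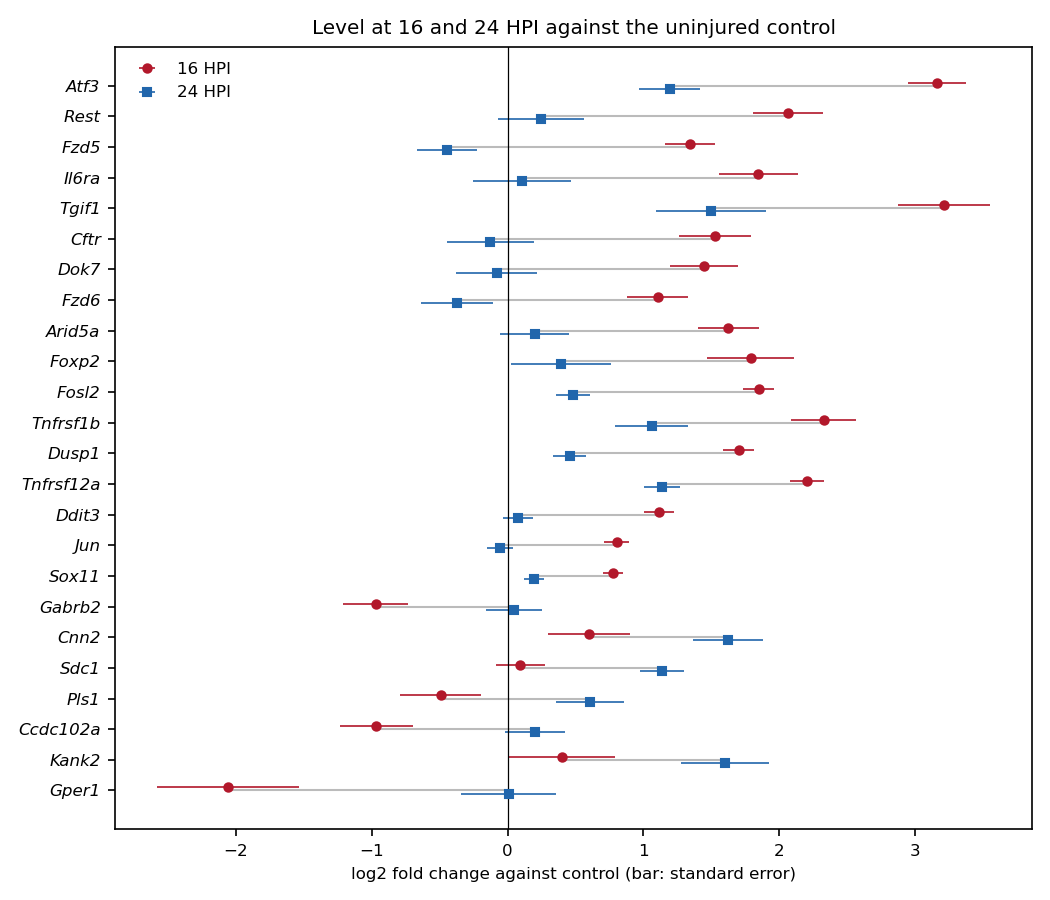
For 24 genes of the step, points give the log2 fold change against control (x, bar: standard error) at 16 HPI (circles) and 24 HPI (squares), joined by a line. Atf3, Tgif1, Tnfrsf1b and Tnfrsf12a stayed over 1 at 24 HPI, most others of the lower genes lay within 0.5 of 0, and Cnn2, Sdc1 and Kank2 were further above control at 24 HPI than at 16 HPI.

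The 8 HPI and control libraries are not part of the 24 against 16 HPI comparison and so give a separate view of the same genes, apart from the shared batch terms and estimate of the spread. Of the 857 genes lower at 24 HPI, 197 (23.0%) were higher at 8 HPI than in control at any fold and 14 (1.63%) lower, where 3.78% and 3.90% of all tested genes were. These 197 were 37.8% of the 521 genes higher at 8 HPI. Of the 495 genes higher at 24 HPI, 74 (14.9%) were lower at 8 HPI than in control and 9 (1.82%) higher, and the 74 were 13.8% of the 537 genes lower at 8 HPI. Of the 57 genes past 2-fold, 13 were higher than control at 8 HPI at any fold. They were the factors Atf3, Fosl2, Ddit3 and Arid5a, the phosphatase genes and subunit Dusp1, Dusp4, Dusp16 and Ppp1r15a, and Hmox1, Cftr, Filip1l, Samd4 and Tnfrsf12a. Rest was not called at 8 HPI (adjusted p = 0.62), at 0.302, 1.06 and 0.808 CPM at 8 HPI against 0.661, 0.958 and 1.01 CPM in control.

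Promoter sequence was read for the genes of the stress and MAP kinase groups, since several of their members fell and have known bZIP-bound elements. The RefSeq promoter table (GRCm38.p6) held 37 of the 57 lower genes, 8 of the 13 higher genes and 10145 of the 13771 tested genes, under the 80% needed for a comparison of shares, so that check is void and counts are given as descriptions. In the 250 bases before the start, on both strands, AP-1 sites (TGANTCA) were found in 1 of the 37 lower genes, CRE sites (TGACGTCA) in 2, C/EBP-ATF response elements (CARE, TGATGNAA) in 5, E-boxes (CACGTG) in 6 and GC boxes (GGGCGG) in 25. The 8 higher genes had none of the first 4 and 5 GC boxes. Of all 32851 promoters in the table, 6.75% held an AP-1 site, 1.55% a CRE, 3.45% a CARE, 6.02% an E-box and 32.7% a GC box. Of the 10145 tested genes in it, 5.06% held an AP-1 site, 3.19% a CRE, 2.43% a CARE, 9.99% an E-box and 64.9% a GC box. The 5 genes with a CARE were Arid5a, Atf3, Fbln5, Gpr132 and Samd4. Shown here are the 250 bases before the start, 5′ to 3′, of the genes with the AP-1 and CRE sites, of Atf3, and of Gper1 as the gene that rose furthest, with AP-1, CRE and CARE matches in capitals.
Atf3 (chr1:191183334-191183583, minus strand): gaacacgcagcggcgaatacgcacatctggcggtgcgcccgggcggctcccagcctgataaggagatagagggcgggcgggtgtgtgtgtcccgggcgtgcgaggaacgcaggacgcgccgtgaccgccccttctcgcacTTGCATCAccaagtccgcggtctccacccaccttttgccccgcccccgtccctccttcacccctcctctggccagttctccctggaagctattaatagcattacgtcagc
Ddit3 (chr10:127290543-127290792, plus strand): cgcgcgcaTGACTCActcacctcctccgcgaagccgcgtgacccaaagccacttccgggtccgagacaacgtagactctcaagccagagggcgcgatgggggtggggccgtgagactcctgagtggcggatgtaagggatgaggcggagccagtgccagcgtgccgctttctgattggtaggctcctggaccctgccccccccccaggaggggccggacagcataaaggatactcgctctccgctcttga
Dusp1 (chr17:26508473-26508722, minus strand): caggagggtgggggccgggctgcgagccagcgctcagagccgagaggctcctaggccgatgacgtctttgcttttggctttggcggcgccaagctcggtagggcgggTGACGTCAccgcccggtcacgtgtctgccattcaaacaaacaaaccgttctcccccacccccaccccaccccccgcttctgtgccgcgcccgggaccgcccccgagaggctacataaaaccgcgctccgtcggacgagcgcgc
Ppp1r15a (chr7:45526269-45526518, minus strand): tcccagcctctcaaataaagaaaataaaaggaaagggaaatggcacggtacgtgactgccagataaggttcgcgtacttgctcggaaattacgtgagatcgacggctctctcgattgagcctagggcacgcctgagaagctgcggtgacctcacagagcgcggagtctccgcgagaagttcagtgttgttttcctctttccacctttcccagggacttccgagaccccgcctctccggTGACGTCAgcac
Gper1 (chr5:139422929-139423178, plus strand): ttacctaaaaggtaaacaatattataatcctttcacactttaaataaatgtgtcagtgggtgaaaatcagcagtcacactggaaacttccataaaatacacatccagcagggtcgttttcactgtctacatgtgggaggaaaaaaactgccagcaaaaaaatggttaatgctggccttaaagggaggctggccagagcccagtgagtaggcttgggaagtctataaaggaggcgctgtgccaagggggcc
The match in Atf3 lay 110 to 103 bases before the start, that in Ddit3 242 to 236, that in Dusp1 143 to 136 and that in Ppp1r15a 12 to 5 bases before it. The window of Gper1 held no match of the 3 motifs. The start is that of RefSeq, and in Atf3 and Dusp1 it lies well inside the gene span given above. Their windows are therefore not upstream of the whole annotated gene.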

How the data were processed

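RNA-seq gene counts of 18 cultures were analysed, with a table of raw counts per gene and library as deposited by the authors. The tools that the submitters' notes name are FastQC, STAR, HTSeq and DESeq2, the study's methods name cutadapt, STAR and featureCounts, and the build was mm10. Ribosomal RNA was depleted and cDNA made with SMARTer reagents per the labels, and the counting is not stated to use strand. The 5 closing entries of each table that name no gene (25.2% to 33.2% of all counts) were left out. Of 47643 gene IDs, 47224 matched GENCODE vM21, by stable ID, for names and positions.

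The counts were fitted with edgeR 4.0.16 in R 4.3.3 (quasi-likelihood F test, TMM) over all 18 libraries, with time point and replicate number as terms. Levels are TMM-normalised CPM, not corrected for gene length, so levels are compared between libraries and not between genes. SE is the standard error of the log2 fold change. Same-numbered libraries deviated together, with correlations of 0.484 to 0.765 over all 45 pairs of libraries and 0.573 to 0.683 over the 3 pairs at 16 and 24 HPI. The replicate number was therefore kept as the block. Where nothing says that cultures came from separate animals, p-values measure the spread between these cultures. Changes per replicate number are differences of log2 CPM with a prior count of 2.

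The genes named are the 15 called genes with the largest change in each direction that moved 1 way in all 3 replicate numbers, up to 6 called members of each gene list, and 8 injury genes given in every case. Some further members of called lists are also named, chosen after their values were seen. Some items that the rule names are not reported here. The genes and lists were chosen with earlier results of these data known. Alternatives were other size factors, DESeq2 1.42.0, limma-voom (limma 3.58.1), other filters, other terms and libraries left out. The edgeR script was tested on simulated data. With 3 libraries a group, a count of 0 allows up to 3 counts, or 0.141 to 0.195 CPM in the 16 and 24 HPI libraries, and this limit covers counting error only.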

Additional observations from a re-analysis of the deposited data

How the results depend on the processing

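Under the 13 alternatives in which no library was left out, the counts at any fold (857 lower, 495 higher) stayed within 1.5 times except where the replicate number was dropped or replaced. Without the replicate block, 18 genes were lower and 0 higher past 2-fold, and 95 lower and 16 higher at any fold. EdgeR then had unadjusted p under 0.05 for 1399 genes. With 1 RUVs factor in place of the block the counts were 31, 2, 281 and 96, in the same order. Past 2-fold, the DESeq2 Wald test called 5 higher, a filter of over 1 CPM in all 18 libraries left 20 lower and 1 higher, and no filter beyond 1 count gave 31 higher. DESeq2 called 41 genes lower past 2-fold. In the 22 alternatives run for these counts, 0 of the 70 calls past 2-fold changed sign where the gene was tested. With 1 library, or 1 replicate number of both groups (added after seeing the data), left out, 30 to 79 genes were lower and 7 to 17 higher past 2-fold, and 310 to 818 lower and 141 to 477 higher at any fold. Without 16 HPI replicate 1 the counts at any fold were 437 lower and 184 higher, without 24 HPI replicate 1 568 and 313, and without 24 HPI replicate 3 445 and 225. Past 2-fold they were 33 and 8, 42 and 8, and 36 and 10. Leaving out the 3 entries added to the rRNA list with it gave 52 lower and 13 higher (chosen after seeing the data). Gal, which was not called, changed sign without 24 HPI replicate 3 (-0.12) or replicate 3 of both groups (-0.16), with a range of -0.16 to 0.53. The causes of these shifts were not tested. Most calls past 2-fold are of genes that averaged under 2 CPM, with few counts behind each value.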
